A study of Mus musculus with 12 samples.

Results

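The genes described here encode the constitutive subunits of the mouse proteasome and 3 chaperones that share their names. They were taken as every gene whose symbol in the scanner files was Psma, Psmb, Psmc or Psmd followed by a number, leaving out the interferon-inducible subunits Psmb8, Psmb9 and Psmb10. This gave 35 genes of 27962 distinct symbols on the array, with 50 probes, and each gene was represented by the brightest of its probes. Of the 35 genes, 34 were detected, each well above background on all 12 arrays, and none was saturated on any array. The gene that was not detected was Psma8, a testis subunit, which was below background on every array. The detected members were 7 genes of the 20S alpha ring, 7 of the 20S beta ring, 6 ATPases of the 19S particle, 11 other 19S subunits and 3 assembly chaperones.

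The samples were C57MG cells, a mouse mammary epithelial line, kept in plain medium for 24 h with carrier protein (BSA), with 100 ng/ml human R-spondin2 (Rspo2), with 100 ng/ml mouse Wnt3a, or with both proteins at those doses. Each group had 3 monolayers of the one line, and each monolayer was hybridized to an array in a single color. The study asked which transcripts respond to Rspo2 and Wnt3a alone and together. Rspo2 is a secreted protein that increases the response of cells to Wnt ligands, and Wnt3a is a ligand that stabilizes beta-catenin.

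The proteasome degrades proteins that carry ubiquitin chains. Its 20S core is a barrel of stacked rings in which outer rings of alpha subunits gate the entrance and inner rings of beta subunits hold the proteolytic sites. The 19S particle caps the barrel: its ATPases unfold the substrate and feed it into the core, and its other subunits bind and remove the ubiquitin. All subunits are needed in fixed numbers, and their genes are known to be transcribed together in many cells.

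Every level below is the log2 of a probe's intensity less the 75th percentile of its array, and every change is a difference of group means on that log2 scale with its standard error (SE) from limma, n = 3 arrays per group. A gene was called when its p, adjusted over the 22751 detected probes, was under 0.05. Between 51.3% and 64.2% of the probes were well above background on an array, and the precision was limited by the number of arrays. The labels and methods treat the monolayers as biological replicates of one line, so the p-values measure the spread between cultures of that line. The arrays lay on 3 slides. The first held the 3 BSA arrays and Rspo2 array 1, the second held Rspo2 arrays 2 and 3 with Wnt3a arrays 1 and 2, and the third held Wnt3a array 3 and the 3 arrays of the combination.

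Markers of the label were mixed. Of 8 mammary epithelial markers, 4 were detected, among them Krt8 and Krt14, while Cdh1 was below background on all 12 arrays and Krt18, Krt19 and Epcam were not detected. All 8 mesenchymal markers were detected. Their linear signals, each in units of the 75th percentile of the array, summed to 282 to 295 in BSA cultures, 261 to 275 in Rspo2 cultures, 277 to 287 in Wnt3a cultures and 272 to 284 in cultures given both. The same sum over the 4 epithelial markers was 10.0 to 10.6 in BSA cultures, 9.64 to 12.2 in Rspo2 cultures, 15.2 to 16.9 in Wnt3a cultures and 22.5 to 25.8 in cultures given both. Such sums follow the brightest genes, and single markers went both ways. Of the 4 epithelial markers, 0 were called higher and 1 lower with Rspo2, 2 and 2 with Wnt3a, and 2 and 1 with both. Of the 8 mesenchymal markers these counts were 0 and 2, 1 and 3, and 0 and 3. Of all detected probes 10.9%, 18.3% and 21.9% were called higher and 5.92%, 13.2% and 17.3% lower. The leukocyte markers Ptprc, Adgre1 and Itgam were not detected, nor were Pecam1 and Kdr of endothelium or Adipoq and Plin1 of adipocytes. Of 5 leukocyte genes, one of which the list holds under an older and a newer symbol, 2 were detected, at sums of 0.0907 to 0.173 over all arrays. The endothelial gene Cdh5 was at 2.40 to 2.57 in BSA cultures and 1.60 to 1.87 in treated ones, and the adipocyte gene Fabp4 at 0.253 to 0.746 over all arrays. Axin2, Ccnd1 and Msln, which respond to beta-catenin, summed to 18.9 to 20.5 in BSA cultures, 23.6 to 27.8 in Rspo2 cultures, 35.5 to 41.7 in Wnt3a cultures and 57.5 to 68.8 in cultures given both. The part of these markers in the results below was not tested, and in RNA from a whole culture a change in the share of a cell type and a change in RNA per cell cannot be told apart.

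Most proteasome genes rose in each treated group. With Rspo2, 20 of the 34 detected members were higher than with BSA (background 10.9% of all detected probes), with Wnt3a 27 were (18.3%), and with the combination 28 were (21.9%). None was called lower in these comparisons (background 5.92%, 13.2% and 17.3%), and none reached a 2-fold rise (background 0.101%, 0.404% and 1.28%). Across members the median change was 0.37 for Rspo2, 0.45 for Wnt3a and 0.47 for both, or 1.29-fold, 1.36-fold and 1.38-fold. Over all detected probes the median changes were 0.01, -0.0003 and 0.04. The 3 treatments share the BSA arrays, so their changes are not independent of each other.

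The rise was modest and was seen array by array. The median level of the 34 members was 4.17, 4.28 and 4.26 on the BSA arrays 1 to 3. It was 4.51, 4.57 and 4.80 with Rspo2, 4.67, 4.78 and 4.75 with Wnt3a, and 4.88, 4.74 and 4.60 with both. No treated array reached down to the BSA arrays in this median, and the 3 treated groups overlapped each other. All 3 Rspo2 arrays lay above all 3 BSA arrays for 28 of 34 members (background 26.3% of probes), all 3 Wnt3a arrays for 29 (25.9%) and all 3 arrays of the combination for 31 (30.8%). Among the brightest 10% of probes these shares were 64.3%, 69.2% and 67.1%. The members also shared an order of arrays within a group. The highest array of its group was BSA array 2 for 20 of 34 members, Rspo2 array 3 for 27, Wnt3a array 2 for 22 and array 1 of the combination for 28. The median level of the brightest 10% of probes had the same highest array in 3 of these groups. It was 4.09, 4.11 and 4.02 on BSA arrays 1 to 3, 4.23, 4.28 and 4.38 with Rspo2, and 4.43, 4.33 and 4.27 with both. With Wnt3a its highest was array 3 (4.27, 4.39 and 4.41).

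**Figure D1:**
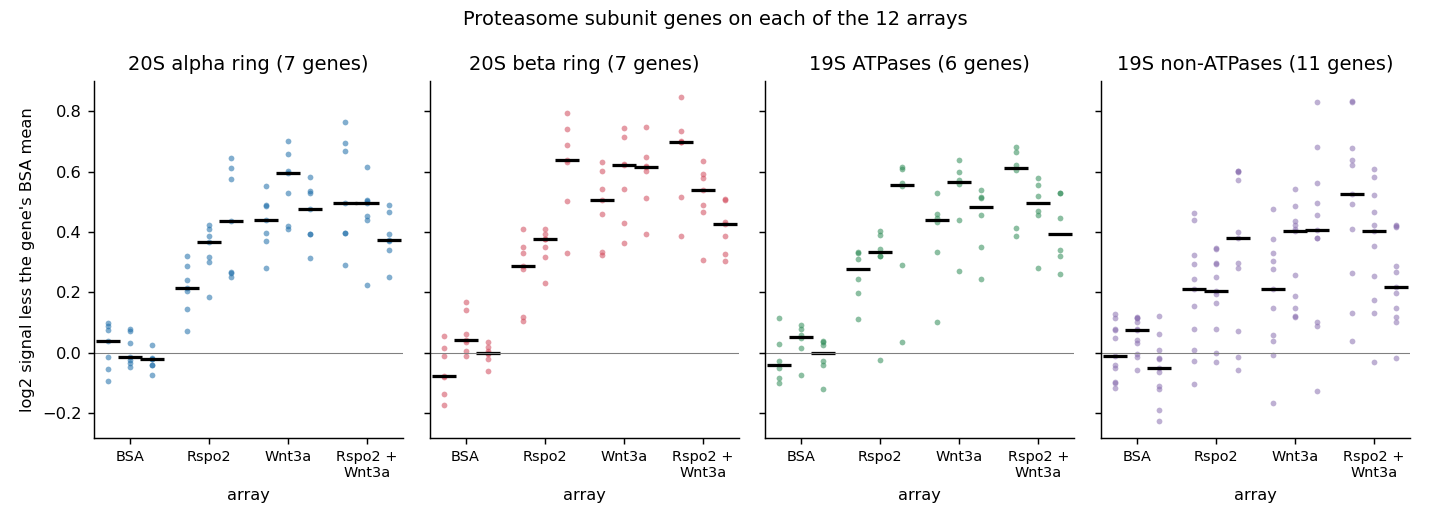
Log2 signal of each detected subunit gene less its own mean over the BSA arrays, on the 12 arrays in group order (3 arrays per group, replicates 1 to 3 from left to right); each point is a gene and each black bar the median of the panel's genes. The panel medians of every treated array lie above 0, while some 19S non-ATPase genes stay near 0.

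These genes are among the brightest on the array, and bright probes as a whole moved in the same direction. Of the 34 members, 32 were in the brightest 10% of the detected probes. The median of those 2275 probes was higher by 0.27 under Rspo2, 0.34 under Wnt3a and 0.32 under both, and 30.3%, 57% and 54.3% of them were called higher, against members' medians of 0.37, 0.45 and 0.47. The dimmest 10% moved the other way, with medians of -0.23, -0.33 and -0.09. Whether the members rose more than other probes of their brightness was not tested, and their values under scalings that take out this shift are given below.

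**Figure D2:**
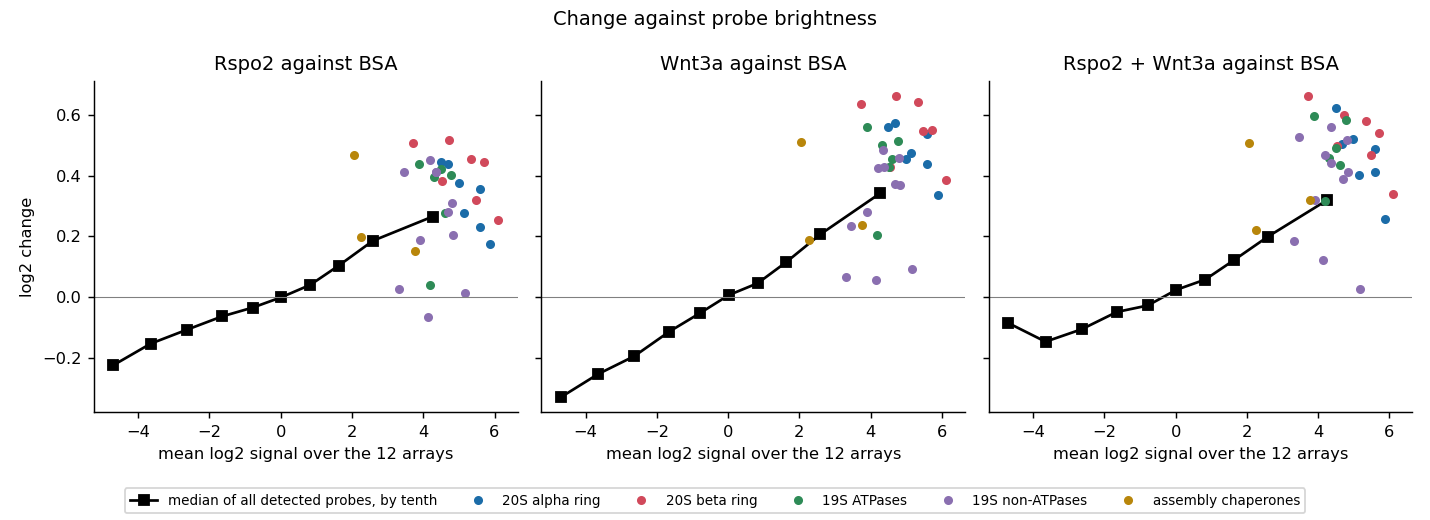
Log2 change against mean log2 signal over the 12 arrays, for the median of each of 10 equal classes of the 22751 detected probes by brightness (black squares) and for each detected member (coloured points). Apart from the dimmest class with both proteins, the median change climbs with brightness in the 3 panels. Most members lie above the square of the brightest class. Psmd1, Psmd2 and Psmd3 are lowest, and with Psma7, Psmc5, Psmd5 and Psmd10 they lie below that square in each panel. Psma5, Psmb4, Psmd6 and Psmd12 also do with Rspo2, and Psmd6 and Psmd13 with Wnt3a.

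The alpha ring forms the gated outer ends of the core. All 7 detected alpha genes rose with Wnt3a and with the combination, and 5 of 7 rose with Rspo2. Over the ring the median change was 0.36 for Rspo2, 0.48 for Wnt3a and 0.49 for the combination. The exceptions with Rspo2 were Psma5 (0.23, adjusted p = 0.0547) and Psma7 (0.17, adjusted p = 0.145).

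Psma4 had the largest rise of the ring with both proteins. Its levels were 3.99, 4.15 and 4.10 with BSA, 4.40, 4.49 and 4.69 with Rspo2, 4.63, 4.68 and 4.61 with Wnt3a, and 4.84, 4.70 and 4.57 with both. Every treated array was above every BSA array, and the Wnt3a and combination arrays overlapped. It rose by 0.45 ± 0.10, 0.56 ± 0.10 and 0.62 ± 0.10 in the order Rspo2, Wnt3a, both (adjusted p = 0.0203, 0.00252 and 0.000748). Psma3 came next with both proteins. Its levels were 4.64, 4.68 and 4.64 with BSA, 4.89, 4.97 and 5.23 with Rspo2, 5.02, 5.06 and 5.23 with Wnt3a, and 5.35, 5.15 and 5.03 with both. The BSA arrays of Psma3 lay close together below all the others, and it changed by 0.38 ± 0.11, 0.45 ± 0.11 and 0.52 ± 0.11 (adjusted p = 0.0413, 0.0107 and 0.00385). Psma1, Psma2 and Psma6 also rose in the 3 treated groups, by 0.28 to 0.58. The smallest rise of the ring with both was that of Psma7 (0.26, adjusted p = 0.0255), which stood at -0.058 after quantile normalization and at -0.086 after cyclic loess normalization, neither of them called.

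The beta ring had the largest median change of the parts of the complex, 0.45 for Rspo2, 0.55 for Wnt3a and 0.54 for the combination. All 7 genes rose with Wnt3a and with both, and 6 of 7 rose with Rspo2. In the 3 treated groups every array was above every BSA array for all 7 genes. In the order Rspo2, Wnt3a, both, this held for 26.3%, 25.9% and 30.8% of all probes. Among the brightest class of probes it held for 64.3%, 69.2% and 67.1%. It also held for 6, 7 and 7 of the 7 alpha genes.

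Psmb6, Psmb7 and Psmb5 encode the catalytic subunits beta1, beta2 and beta5, which cut after acidic, basic and hydrophobic residues. Psmb6 was at 4.91, 4.95 and 4.90 with BSA, 5.21, 5.31 and 5.61 with Rspo2, 5.52, 5.63 and 5.54 with Wnt3a, and 5.65, 5.50 and 5.35 with both. The BSA arrays were the lowest and lay close together. Psmb6 rose by 0.46 ± 0.11, 0.64 ± 0.11 and 0.58 ± 0.11 (adjusted p = 0.0247, 0.0023 and 0.00213). Psmb7 was at 4.19, 4.31 and 4.31 with BSA, 4.62, 4.68 and 5.06 with Rspo2, 4.91, 5.02 and 4.89 with Wnt3a, and 4.97, 4.87 and 4.78 with both. Its Rspo2 array 3 was the highest of the 12, and no treated array overlapped BSA. Psmb7 rose by 0.52 ± 0.11, 0.66 ± 0.11 and 0.60 ± 0.11 (adjusted p = 0.0203, 0.00232 and 0.00213), which is 1.43-fold, 1.58-fold and 1.52-fold.

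Psmb5 varied more among its replicates. It was at 4.08, 4.35 and 4.21 with BSA, 4.49, 4.44 and 4.85 with Rspo2, 4.54, 4.58 and 4.81 with Wnt3a, and 4.91, 4.70 and 4.52 with both. The groups did not overlap BSA, but the lowest treated array, at 4.44, was close to the highest BSA array, at 4.35. The change with Rspo2 did not pass the test (0.38 ± 0.14, adjusted p = 0.0806), and the rises of 0.43 ± 0.14 with Wnt3a and 0.50 ± 0.14 with both did (adjusted p = 0.0381 and 0.0165). Among the beta subunits without a catalytic site, Psmb2 had the largest rise with both proteins. It was at 3.09, 3.43 and 3.27 with BSA, 3.67, 3.64 and 4.01 with Rspo2, 3.81, 3.89 and 4.01 with Wnt3a, and 4.11, 3.90 and 3.77 with both. All treated arrays were above BSA, and the changes were 0.51 ± 0.13, 0.64 ± 0.13 and 0.66 ± 0.13 (adjusted p = 0.0295, 0.00506 and 0.00268). Psmb1, Psmb3 and Psmb4 also rose in the 3 treated groups, Psmb4 least (0.25, 0.39 and 0.34), though after cyclic loess normalization its changes were -0.054, -0.019 and -0.012.

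**Figure D3:**
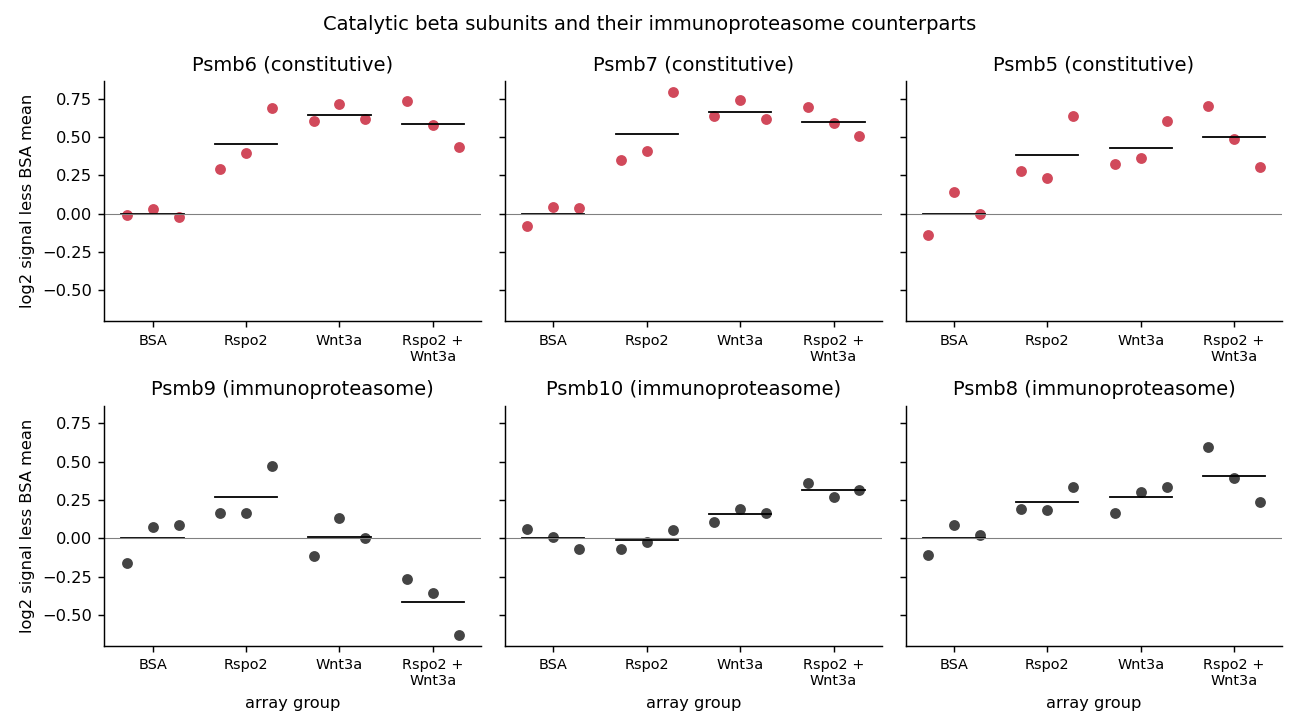
Log2 signal less the gene's BSA mean on the 12 arrays for the catalytic subunits Psmb6, Psmb7 and Psmb5 (upper row) and for the immunoproteasome subunits that replace them, Psmb9, Psmb10 and Psmb8 (lower row); points are arrays and lines are group means. The upper genes lie above BSA in every treated group, while Psmb9 is lowest with both proteins.

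In cells exposed to interferon the 3 catalytic subunits are replaced by Psmb9, Psmb10 and Psmb8, which together form the immunoproteasome. Psmb8 was at 1.86, 2.06 and 1.99 with BSA and at 2.56, 2.36 and 2.20 with both proteins, and rose by 0.41 (adjusted p = 0.00998). Psmb10 was at 3.73, 3.68 and 3.60 with BSA and at 4.03, 3.94 and 3.98 with both, and rose by 0.31 (adjusted p = 0.00504). Psmb9 was at -2.14, -1.90 and -1.90 with BSA, at -1.81, -1.82 and -1.51 with Rspo2, at -2.10, -1.84 and -1.98 with Wnt3a, and at -2.25, -2.34 and -2.61 with both. Its combination arrays were below all others, and it was the one immunoproteasome gene called lower, by -0.42 (adjusted p = 0.0226). After quantile normalization Psmb9 was 0.28 lower (-0.28, adjusted p = 0.125) and Psmb10 0.09 higher (adjusted p = 0.272), neither called, while Psmb8 was still called higher (0.28, adjusted p = 0.0268); Psmb10 was then called lower with Rspo2 (-0.21, adjusted p = 0.0461). Psme1, which encodes a subunit of the PA28 activator, rose by 0.30 in both Wnt3a groups (adjusted p = 0.0474 for Wnt3a alone and 0.037 for the combination), but stood at 0.027 and 0.066, neither called, after quantile normalization. Of the 4 measured genes of this list none was called with Rspo2 (background 10.9% higher and 5.92% lower), while with both 3 were called higher (21.9%) and 1 lower (17.3%). After quantile normalization the list had 1 gene lower with Rspo2, and 1 higher and none lower with both.

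The ATPase ring of the 19S particle had 5 of 6 genes called higher under Rspo2, 5 under Wnt3a and 6 under both. Its median change was 0.40, 0.48 and 0.48. Psmc1 had the largest rise with both, with levels of 3.43, 3.50 and 3.52 with BSA, 3.80, 3.89 and 4.09 with Rspo2, 4.01, 4.12 and 4.0 with Wnt3a, and 4.17, 4.06 and 4.01 with both. Its BSA arrays lay below all others, and it changed by 0.44 ± 0.09, 0.56 ± 0.09 and 0.60 ± 0.09 (adjusted p = 0.0169, 0.00168 and 0.000544). Psmc2 was at 4.31, 4.44 and 4.43 with BSA, 4.72, 4.72 and 4.96 with Rspo2, 4.83, 4.97 and 4.93 with Wnt3a, and 5.06, 4.95 and 4.92 with both. It did not overlap BSA either, and rose by 0.40 ± 0.09, 0.51 ± 0.09 and 0.58 ± 0.09 (adjusted p = 0.02, 0.00228 and 0.000565). Psmc3, Psmc4 and Psmc6 rose in each treated group as well, by 0.28 to 0.50. After quantile normalization only Psmc1, Psmc2 and Psmc3 of the ring were called with both proteins, and only Psmc1 with Rspo2 and with Wnt3a.

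Psmc5 differed between its probes. The brighter probe gave 0.04 with Rspo2 (adjusted p = 0.774), 0.21 with Wnt3a (0.0893) and 0.32 with both (0.0131). The other, to the same RefSeq transcript, gave 0.53, 0.51 and 0.61, each called higher, so the lower count with Rspo2 and Wnt3a rests on the probe used.

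The 19S subunits that are not ATPases were the most varied. Of 11 such genes, 3 were called higher under Rspo2, 6 under Wnt3a and 6 under both, and the median changes were 0.28, 0.37 and 0.41. In the same order, 10.9%, 18.3% and 21.9% of all probes were called higher, and 30.3%, 57% and 54.3% of the brightest 10%. Psmd7 and Psmd14, which encode the paired MPN domain subunits of the lid, had the largest called rises with both, and Psmd14 is the enzyme that removes ubiquitin chains from the substrate. Psmd7 was at 3.88, 4.03 and 4.04 with BSA, 4.28, 4.33 and 4.59 with Rspo2, 4.46, 4.47 and 4.48 with Wnt3a, and 4.66, 4.57 and 4.41 with both. All its treated arrays were above BSA, and the changes were 0.41 ± 0.10, 0.49 ± 0.10 and 0.56 ± 0.10 (adjusted p = 0.0243, 0.00487 and 0.00143). A second probe to the same Psmd7 transcript rose in the same comparisons (0.28, 0.44 and 0.42). Another, much dimmer, to a cDNA with no RefSeq symbol here, was lower in them, and was called for Wnt3a and for the combination (-0.84 and -1.10, adjusted p = 0.00617 and 0.000968).

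Psmd14 was at 4.44, 4.52 and 4.49 with BSA, 4.73, 4.78 and 4.88 with Rspo2, 4.86, 5.03 and 4.94 with Wnt3a, and 5.11, 5.01 and 4.90 with both. The BSA arrays were lowest, and it rose by 0.31 ± 0.08, 0.46 ± 0.08 and 0.52 ± 0.08 (adjusted p = 0.0298, 0.00263 and 0.000704). Psmd8 rose in the 3 treated groups, and Psmd6, Psmd11 and Psmd12 rose with Wnt3a and with both but were not called with Rspo2 (0.19, 0.28 and 0.21), and Psmd6 stood at -0.0016 with Wnt3a after cyclic loess normalization. Psmd4, a ubiquitin receptor, and Psmd13, a subunit of the lid, had changes of 0.23 to 0.53 that did not pass the test in any of the 3 comparisons, with an SE of 0.22. Psmd4 spread from 3.89 to 4.68 among the Wnt3a arrays and from 3.96 to 4.69 among those of the combination.

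Psmd1, Psmd2 and Psmd3 had the changes nearest to 0 with Wnt3a and with both, and are described because of those values. With Rspo2 the brighter Psmc5 probe (0.04) was nearer to 0 than Psmd2 (-0.06). Psmd1 and Psmd2 encode Rpn2 and Rpn1, the large scaffolds of the base of the 19S particle, and Psmd3 encodes Rpn3 of the lid. Psmd1 was at 3.24, 3.32 and 3.18 with BSA, 3.26, 3.25 and 3.32 with Rspo2, 3.24, 3.37 and 3.34 with Wnt3a, and 3.51, 3.42 and 3.36 with both. Psmd2 was at 4.0, 4.11 and 4.24 with BSA, 4.01, 4.08 and 4.06 with Rspo2, 4.27, 4.27 and 3.99 with Wnt3a, and 4.16, 4.25 and 4.31 with both. Psmd3 was at 5.18, 5.21 and 5.01 with BSA, 5.11, 5.21 and 5.12 with Rspo2, 5.19, 5.25 and 5.24 with Wnt3a, and 5.27, 5.10 and 5.11 with both. The treated arrays overlapped BSA for the 3 genes, except those of Psmd1 with both proteins. With both the changes were 0.19 ± 0.07, 0.12 ± 0.10 and 0.03 ± 0.08 (adjusted p = 0.0676, 0.343 and 0.817), and with Rspo2 they were 0.03, -0.06 and 0.01. Set against other bright probes rather than the array percentile they were lower. After quantile normalization Psmd3 was called lower in both Wnt3a groups (-0.23 for Wnt3a alone and -0.27 for the combination, adjusted p = 0.0498 and 0.0203), and after cyclic loess normalization Psmd1 was called lower with Wnt3a (-0.18, adjusted p = 0.0431) and Psmd3 in these 2 groups (-0.26 and -0.28, adjusted p = 0.0338 and 0.0155). No test compared these genes with the other subunits.

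**Figure D4:**
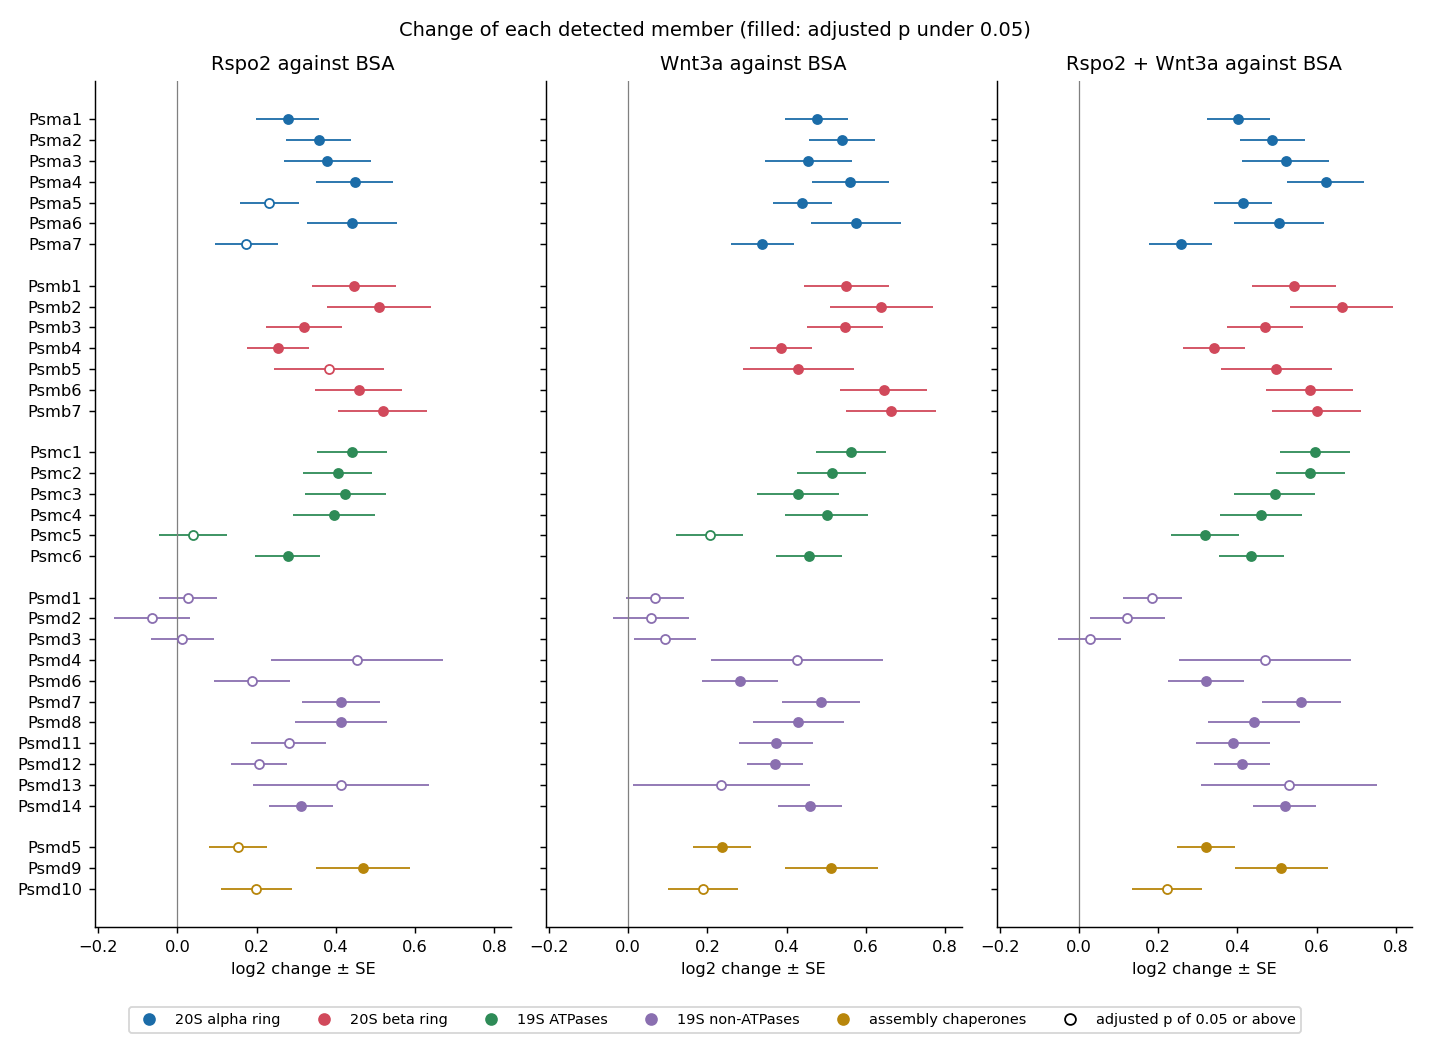
Log2 change with its SE for the 34 detected members in the 3 comparisons with BSA, grouped by part of the complex; filled points passed an adjusted p under 0.05. The 14 genes of the 20S rings are all filled with Wnt3a and with both, while Psmd1, Psmd2 and Psmd3 sit near 0 and Psmd4 and Psmd13 have the widest bars.

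Psmd9, Psmd5 and Psmd10 carry subunit names but encode the chaperones p27, S5b and gankyrin, which hold ATPase pairs during assembly of the base and are absent from the finished proteasome. Psmd9 was at 1.60, 1.74 and 1.68 with BSA, 2.01, 2.07 and 2.35 with Rspo2, 2.09, 2.19 and 2.28 with Wnt3a, and 2.39, 2.16 and 2.0 with both. No treated array overlapped BSA, and it rose by 0.47 ± 0.12, 0.51 ± 0.12 and 0.51 ± 0.12 (adjusted p = 0.0279, 0.00856 and 0.00624). Psmd9 was one of the 2 members below the brightest 10% of probes. Psmd5 was at 3.51, 3.61 and 3.65 with BSA, 3.78, 3.71 and 3.73 with Rspo2, 3.75, 3.87 and 3.86 with Wnt3a, and 3.97, 3.93 and 3.82 with both. Its arrays did not overlap BSA, and it rose by 0.24 ± 0.07 with Wnt3a and 0.32 ± 0.07 with both (adjusted p = 0.0316 and 0.00607), the first of which turned to -0.015 after quantile and -0.039 after cyclic loess normalization. With Rspo2 its change of 0.15 ± 0.07 did not pass the test (adjusted p = 0.165).

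Psmd10 was at 2.0, 2.17 and 2.15 with BSA, 2.32, 2.21 and 2.38 with Rspo2, 2.19, 2.29 and 2.40 with Wnt3a, and 2.43, 2.33 and 2.23 with both. The groups did not overlap BSA, but the lowest treated array, at 2.19, was next to the highest BSA array, at 2.17, and the changes of 0.20, 0.19 and 0.22 did not pass the test (adjusted p = 0.137, 0.13 and 0.0698). The assembly factors of the 20S core went the same way as Psmd9. Pomp, which helps close the beta ring, rose by 0.31, 0.52 and 0.45 in the 3 treated groups. Psmg1, which with Psmg2 starts the alpha ring, rose by 0.29, 0.40 and 0.36. Psmg2 and Psmg3 rose with Wnt3a (0.51 and 0.56) and with both (0.59 and 0.36). All 4 measured factors of 7 listed were thus called with Wnt3a and with both (background 18.3% and 21.9% higher). After quantile normalization 3 and 2 of them were (14.1% and 19.6%). With Rspo2 2 were called (10.9%), and none after quantile normalization (6.72%).

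No change was detected in any member when Rspo2 was added to Wnt3a. Between the combination and Wnt3a alone 0 of 34 members were called in either direction by limma (background 1.78% higher and 2.49% lower). In that fit 0 had an unadjusted p under 0.05 (4196 of the 22751 detected probes had), and 0 were called by the methods' t-test. The median difference was 0.03, with a range of -0.08 to 0.30. The interaction, meaning the combined change minus the sum of both single changes, was below 0 for 31 of 34 members with a median of -0.32. It was called for 1 member, Psmb7 (-0.58 ± 0.16, adjusted p = 0.048), against 5.31% of all probes called lower and 3.58% called higher. By limma 20 members had an unadjusted p under 0.05, as did 6657 of all 22751 detected probes and 1067 of the 2275 brightest. The median interaction of the brightest 10% of probes was -0.30, and 12.1% of them were called lower.

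The members' rise depended on how arrays were scaled. Quantile normalization, which gives every array the same distribution and so takes out a shift shared by bright probes, left median changes of 0.13, 0.14 and 0.19. With it 2 members were called higher under Rspo2, 8 under Wnt3a and 13 under both (of all probes 6.72%, 14.1% and 19.6% were). Cyclic loess normalization, added after the change of bright probes had been seen, left 0, 7 and 12 (4.59%, 11.8% and 16.8% of all probes). The members called higher with both proteins under all 3 scalings were 12, namely Psma3, Psma4, Psmb1, Psmb2, Psmb6, Psmb7, Psmc1, Psmc2, Psmc3, Psmd7, Psmd14 and Psmd9. With Wnt3a they were 7, namely Psma4, Psma6, Psmb2, Psmb6, Psmb7, Psmc1 and Psmd9. Among these the largest changes with both after quantile normalization were 0.44 for Psmb2, 0.39 for Psmd9, 0.37 for Psmc1 and 0.36 for Psma4, against 0.66, 0.51, 0.60 and 0.62 before. Scaling to the array median, after which the median change of all probes was 0.18, 0.33 and 0.26, gave 25, 33 and 32 calls. Of all probes 19.7%, 42.3% and 35.1% were then called higher.

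**Figure D5:**
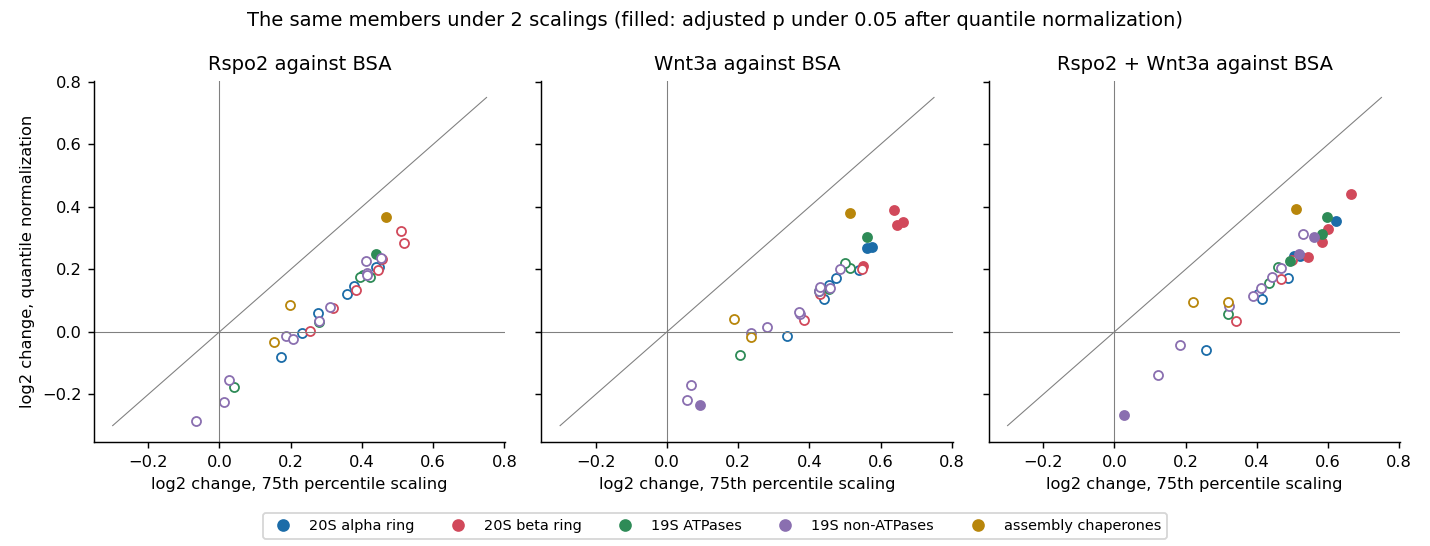
Log2 change of each detected member after quantile normalization (vertical axis) against its change with the 75th percentile scaling (horizontal axis) in the 3 comparisons with BSA; filled points were called after quantile normalization and the diagonal marks equal values. Points below the diagonal had a lower value after quantile normalization, and 2, 9 and 14 of 34 are filled. Of these, 1 with Wnt3a and 1 with both, Psmd3 in each case, were called lower.

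The slide also bears on these comparisons, since BSA shared a slide with only 1 treated array. On that slide Rspo2 array 1 was above the mean of the 3 BSA arrays for 32 of 34 members, with a median difference of 0.24, against 0.03 for all probes and 0.16 for the brightest 10%. It was also above that mean for 12247 of the 22751 detected probes and for 1934 of the 2275 brightest. On the second slide the 2 Wnt3a arrays were above the 2 Rspo2 arrays by a median of 0.06, and on the third the combination was below Wnt3a array 3 by a median difference of -0.02. When the fit held slide as a term, the median changes of the members were 0.24, 0.29 and 0.31, and 32, 34 and 31 of the 34 were above 0. The medians of the brightest 10% of probes were 0.16, 0.17 and 0.096. With this layout the Rspo2 change is the first slide's difference again, and those with Wnt3a and with both are built on it. All 3 changes in that fit thus rest on Rspo2 array 1, and they are not separate observations. No member was then called by limma in any comparison, 5, 7 and 3 had an unadjusted p under 0.05, and the median SE was 0.13, 0.17 and 0.21 in place of 0.10. Of all probes 0.431%, 0.796% and 2.51% were called in that fit. With Rspo2 the count of members called also fell to 0 without BSA array 1 or without Rspo2 array 3, to 1 without BSA array 3, to 5 without BSA array 2, to 7 without Rspo2 array 2 and to 11 without array 2 of the combination.

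Other genes of the pathway were read from lists. Of 7 activators, inhibitors and bound partners of the proteasome, 2 rose under Rspo2, 4 under Wnt3a and 5 under both (background 10.9%, 18.3% and 21.9%). After quantile normalization 1, 1 and 2 did, and Psme4, which encodes the activator PA200, was called lower with both (-0.57, adjusted p = 0.0157). Usp14, a deubiquitinase that docks on the 19S particle, rose by 0.26 with Wnt3a (adjusted p = 0.0223) and 0.59 with both (0.000183), and was the one gene of the list that also rose from Wnt3a to the combination (0.33, adjusted p = 0.0291). After quantile normalization the change of Usp14 with Wnt3a was 0.07 and not called, and that with both was called (0.41, adjusted p = 0.00102). Psmf1, an inhibitor of the 20S core, rose by 0.50, 0.45 and 0.56, and was also called in each case after quantile normalization (0.42, 0.34 and 0.45). Uchl5, the other docked deubiquitinase, rose by 0.48 with Wnt3a and 0.35 with both, and its receptor Adrm1 by 0.47 with both, but after quantile normalization they stood at 0.20, 0.096 and 0.27, none of them called. Shfm1, a small subunit of the lid, rose by 0.41, 0.51 and 0.30, but stood at 0.11, 0.10 and -0.056, none of them called, after quantile normalization.

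Of 11 factors known to drive proteasome gene transcription and their processing enzymes and regulators, none was called with Rspo2 (background 10.9% higher and 5.92% lower), 1 rose with Wnt3a (18.3% higher), and 1 rose and 1 fell with both (21.9% higher and 17.3% lower). Nfe2l1, which raises proteasome gene transcription when proteasome activity is low, fell by 0.47 with both (-0.47, adjusted p = 0.0143). It was also called lower after quantile normalization (-0.67, adjusted p = 0.0056), then with Wnt3a too (-0.45, adjusted p = 0.0479), and stood at -0.14 with slide as a term. Nfyb, a subunit of the CCAAT-binding factor, rose by 0.28 with Wnt3a and 0.25 with both, and was not called after quantile normalization. Keap1, the repressor of Nfe2l2, was called lower with both only after quantile normalization (-0.30, adjusted p = 0.0168) and cyclic loess normalization (-0.32, adjusted p = 0.0133). Nfe2l2 was not called in any comparison, and of 8 genes that it is known to induce Srxn1 rose with Wnt3a (0.34, but 0.08 and not called after quantile normalization) and the cystine transporter Slc7a11 fell with Rspo2 (-1.23, adjusted p = 0.0271), a count of 1 of 8 in each of these comparisons beside 18.3% and 5.92% of all probes. After quantile normalization Txnrd1, a thioredoxin reductase of that list, was called lower in the 3 treated groups (-0.41, -0.26 and -0.25, adjusted p = 0.0137, 0.0382 and 0.0289), from -0.21, 0.03 and 0.003 before, none of them called. Of 13 genes for ubiquitin and for delivery to the proteasome, 2 rose under Rspo2, 5 under Wnt3a and 6 under both (background 10.9%, 18.3% and 21.9%), among them the ubiquitin genes Ubb (0.34, 0.38 and 0.30) and Rps27a (0.30 with Wnt3a, 0.34 with both). After quantile normalization 0, 1 and 1 of the 13 did, and Vcp was called lower with both (-0.41, adjusted p = 0.0332). Ubb and Rps27a were then between -0.14 and 0.05 in the same comparisons and neither was called. Ufd1l, a cofactor of the Vcp unfoldase, rose by 0.38 with Wnt3a and 0.59 with both, and was called in both cases after quantile normalization (0.30 and 0.50).

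Since many members rose, the 250 bases before their start sites were searched on both strands for short motifs, in promoter sequences of RefSeq on build GRCm38.p6. A window was at hand for 28 of the 35 members, and was not for Psma8, Psmb1, Psmb2, Psmb7, Psmc3, Psmd3 and Psmd7. The core of the antioxidant response element, TGACNNNGC, through which Nfe2l1 and Nfe2l2 act, was found in 5 of the 28 members (17.9%), against 10.2% of all 32851 windows. The sequences around it are shown because these factors are the known regulators of the family, with the match in capitals and each read 5′ to 3′ along the gene's strand. They lie at chr11:70525318-70525356 on the plus strand for Psmb6, chr14:54618004-54618072 on the minus strand for Psmb5, chr5:123228129-123228189 on the plus strand for Psmd9, and, in the far part of the window, chr14:45329574-45329635 and chr11:107479278-107479319, both on the plus strand, for Psmc6 and Psmd12.
Psmb6: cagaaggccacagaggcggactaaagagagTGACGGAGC
Psmb5: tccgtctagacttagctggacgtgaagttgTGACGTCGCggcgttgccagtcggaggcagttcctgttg
Psmd9: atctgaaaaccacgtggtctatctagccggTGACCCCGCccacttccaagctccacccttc
Psmc6: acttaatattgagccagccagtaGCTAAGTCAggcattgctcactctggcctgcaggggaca
Psmd12: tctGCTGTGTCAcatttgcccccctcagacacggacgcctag

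The match of Psmc6 and that of Psmd12 are on the opposite strand and so appear reversed. All 5 of these genes were called higher with both proteins. Of the 28 members searched 23 were, and none of the other 5 members held the motif. After quantile normalization Psmb6 and Psmd9 were still called, and Psmb5, Psmc6 and Psmd12 were not. Whether the motif goes with the rise was not tested.

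The ETS site CCGGAAG was in 9 of 28 members (32.1%) against 6.91% of all windows. It was in 7 of 23 members called higher with both and in 2 of 5 of the others. The sites of 2 ATPase genes that rose and of Psmd2, which was not called, are shown for comparison, with the match in capitals. They lie at chr12:100110144-100110201 for Psmc1, chr5:21786693-21786746 for Psmc2 and chr16:20651596-20651651 for Psmd2, all on the plus strand with the match on the minus strand; Psmc2 holds a second match farther upstream.
Psmc1: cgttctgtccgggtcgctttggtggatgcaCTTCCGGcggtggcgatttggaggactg
Psmc2: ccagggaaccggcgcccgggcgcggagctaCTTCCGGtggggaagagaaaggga
Psmd2: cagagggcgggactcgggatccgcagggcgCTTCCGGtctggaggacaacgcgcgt

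The CCAAT box, letters CCAAT, was in 11 of 28 members (39.3%) against 33.8% of all windows. The TCF/LEF site through which beta-catenin acts, written CTTTGAT, was in 1 of 28, Psmd10 (3.57%), against 3.21% of all windows. These are matches of letters in a short window, with no measurement of binding in these samples.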

How the data were processed

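RNA of 12 cultures was hybridized to single color Agilent arrays. The deposited intensity values of each spot had been made by the authors with Agilent Feature Extraction 9.5.3.1, which subtracts background, and were not scaled between arrays. Another deposited file holds ratio values, which the authors obtained as signal over the array's 75th percentile, and was used as an alternative.

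Spots marked as outliers were left out, spots of a probe were averaged, and log2 values were reduced by the array's 75th percentile. A probe was detected when well above background on all 3 arrays of a group (22751 of 41174 probes). The linear models used limma 3.58.1, run under R 4.3.3, and p-values were adjusted by the Benjamini-Hochberg method over every detected probe (threshold 0.05). Promoters and figures used Python 3.11.15 and matplotlib 3.10.9. The fit was tested on simulated data.

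The members and lists were chosen with earlier results of these data known. Levels on every array are given for Psmb5, Psmb6 and Psmb7, for the 2 largest called rises and falls with both proteins in each part of the complex (no member fell), and for the chaperones; other genes come from 6 fixed lists. Psme2, Psmg4, Paaf1 and Ecm29 had no probe by name. The alternatives were other scalings, background correction, filters, probe choices, tests, the slide, a replicate block and leaving out each array. The exact permutation test of 3 arrays against 3 cannot pass 0.05 and was not used.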

Additional observations from a re-analysis of the deposited data

Results flagged for a closer look

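The effect of Rspo2 on 3 genes differed between cells without and with Wnt3a by the limma test of that difference, the interaction. For Psmb7 it was -0.58 (adjusted p = 0.048), with Rspo2 raising it by 0.52 without Wnt3a and changing it by -0.06 with Wnt3a. The value lay between -0.86 and -0.29 over all alternatives, and it was not called after quantile normalization (-0.31) or with slide as a term (-0.36). Leaving out any array other than Rspo2 array 1 or array 1 of the combination also ended the call, with values of -0.64 to -0.44. For the immunoproteasome subunit Psmb9 it was -0.69 (adjusted p = 0.0403), with changes of 0.27 and -0.42, and it was also called after quantile normalization (-0.80, adjusted p = 0.035) but not with slide as a term (-0.58, adjusted p = 0.317). For Shfm1, a small subunit of the lid, it was -0.62 (adjusted p = 0.0247), with changes of 0.41 and -0.21, and it was not called after quantile normalization (-0.26, adjusted p = 0.166).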

How the results depend on the processing

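The direction of the median change of the members with Rspo2, with Wnt3a and with both was the same under every alternative run, but the count of calls was not. In the order Rspo2, Wnt3a and both against BSA, quantile normalization gave 2, 9 and 14 calls with medians of 0.13, 0.14 and 0.19. Of these calls 1 with Wnt3a and 1 with both were lower. For the interaction it gave 0 calls with a median of -0.065. Cyclic loess normalization, added after seeing the data, gave 0, 9 and 13 calls with medians of 0.092, 0.12 and 0.18. Of these calls 2 with Wnt3a and 1 with both were lower. The median interaction was -0.037, and it was called for 1 member, Psmd1, as higher (0.31, adjusted p = 0.0496). With slide as a term there were 0 calls in each of these comparisons and in the interaction, with medians of 0.29 and 0.31 for Wnt3a and both. With normexp background correction there were 0 calls in each and in the interaction, with medians of 0.16 and 0.53 for Rspo2 and Wnt3a and -0.13 for the interaction. Median scaling gave medians of 0.53, 0.77 and 0.68, and 16 calls with a median of -0.60 for the interaction. The medians of all probes were then 0.18, 0.33 and 0.26, and -0.28 for the interaction. The 75th percentile over probes above background on all arrays gave 12 calls with Rspo2, a median of 0.33 with Wnt3a and 0 calls in the interaction. Slide as a random block gave 12 calls with Rspo2 and 0 in the interaction, and no filter on dim probes gave 0 and 0. The interaction had 2 calls with only probes above background on all arrays and 5 with an intensity trend. The methods' t-test after Benjamini-Hochberg adjustment gave 0, 11 and 12 calls, against 21, 27 and 30 unadjusted. Asking for a 2-fold change left 0 calls in each of these comparisons and in the interaction. The causes were not tested.

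Leaving out each array in turn gave 0 to 21 calls with Rspo2, 23 to 27 with Wnt3a, 24 to 29 with both, 0 to 0 between both and Wnt3a, and 0 to 8 in the interaction. The medians ranged from 0.28 to 0.43, 0.43 to 0.49, 0.41 to 0.53, -0.04 to 0.08 and -0.39 to -0.26. With Rspo2 the count was 0 without BSA array 1 or Rspo2 array 3, 1 without BSA array 3, 5 without BSA array 2, 7 without Rspo2 array 2 and 11 without array 2 of the combination. In the interaction it was 8 without Rspo2 array 1, 4 without array 1 of the combination, 1 without Wnt3a array 3, and 0 without each of the others. Of 76 calls of single members, 46 held whichever array was left out.

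A fit with the replicate number as a block gave 1 call with Rspo2 and 0 in the interaction. It changed no other count by over 1.5 times. Same-numbered arrays did not deviate together (correlations of -0.413 to 0.271 over 18 pairs, median 0.01), so the numbers were not read as pairs.

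Among the 76 calls of single members, signs changed after cyclic loess normalization for Psmb4 with Rspo2 (-0.054), Wnt3a (-0.019) and both (-0.012), Psma7 with Wnt3a (-0.055) and both (-0.086), Psmd6 with Wnt3a (-0.0016) and Psmd5 with Wnt3a (-0.039). After quantile normalization Psma7 did with Wnt3a (-0.014) and both (-0.058) and Psmd5 with Wnt3a (-0.015). With the mean of all probes of a gene Psmc2 did with Wnt3a (-0.090) and Psmd7 with both (-0.039), where a dimmer probe moved the other way.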
